A study of Mus musculus with 18 samples.

Results

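The N and mature luminal gates of D542G mammary glands were compared, a contrast that rests on 6 of the 18 RNA sequencing libraries of the study, 3 from each gate. The libraries were chosen by their labels alone. D542G is a mutation of Esr1, which encodes estrogen receptor alpha (ERα), and the mice were 6 months old. All had pellets of estradiol (E2) and progesterone (P4) implanted and were then given giredestrant, an antagonist of ERα, by mouth at 30 mg/kg daily for 4 days. The mature luminal gate is written ML. The other gate, N in the sample names, held cells that the labels set apart from the mature luminal type, yet they name mature luminal cells as the source of both. They state neither the markers of the gates nor whether 1 or both Esr1 alleles carried the mutation, and do not say whether libraries with the same number came from 1 animal. WT and Y541S mice, treated the same way, gave 6 libraries each and are used here to say where the D542G gate difference departs from theirs. None of the 18 libraries came from mice without hormone pellets or without giredestrant, so every value describes tissue under both.

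The mammary epithelium is a bilayer. Its inner, luminal layer holds hormone-sensing cells, which carry receptors for estrogen, progesterone and prolactin, and progenitors that can form milk-producing alveolar cells. Its outer, basal layer holds contractile myoepithelial cells and stem cells, which carry keratins 5 and 14, the transcription factor p63 and the integrins and laminins that tie the layer to the basement membrane. Bound to estradiol, ERα switches on targets such as Pgr, Greb1 and Areg in hormone-sensing cells, which then signal to their neighbours. Antagonists compete with estradiol for the receptor, and mutations of its ligand-binding domain, found in endocrine-resistant breast cancer, can leave it active without hormone.

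The 6 libraries held 39333438 to 49507144 gene counts and 18891 to 20807 genes with a count. Levels are given as CPM, counts scaled to library size with TMM factors, for replicates 1, 2 and 3 in that order. On the first principal component of all 18 libraries (45.3% of the variance) the D542G N libraries lay at 33.4, 40.7 and 41.6 and the ML libraries at −65.8, −61.9 and −46.8. Across the 10000 most expressed genes the N libraries correlated with each other at r = 0.956 to 0.966 and with ML libraries at 0.728 to 0.786. ML 1 and ML 2 correlated at 0.976, and ML 3 with them at 0.916 and 0.921. ML 3 therefore stood apart, and its closest library was Y541S ML 1 (0.940). The surface protein Ly6a stood at 2095, 2094 and 239 CPM in the ML libraries, and ML 3 held more of the progenitor and milk genes given below. All 6 libraries held Esr1, Epcam and luminal keratin transcripts, as their source label has it, and the N libraries also held basal keratins, with values below. In bulk RNA, fewer cells of a type and less RNA per cell cannot be told apart, nor can 1 cell with both kinds of keratin and a mixture of cells.

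Of 18298 genes tested, 1684 (9.2%) differed between the gates at an adjusted p under 0.05, 862 (4.71%) higher and 822 (4.49%) lower in N. Such genes are called here. Fold changes are log2 values of N over ML ± standard error, with a median of −0.03 over all genes. Of the called genes 433 were at least 4-fold higher and 357 at least 4-fold lower, and 138 and 120 passed 16-fold. The 3 N libraries lay above all 3 ML libraries for 3550 genes (19.4%) and below them for 3505 (19.2%). All but 4 of the called genes were of this kind (1680, 9.18%). The model shares its spread among all 18 libraries (biological coefficient of variation 0.652). Fitted on the 6 D542G libraries alone, the coefficient was 0.432, with 1773 genes higher and 1778 lower. With same-numbered N and ML libraries as pairs, 1021 were higher and 934 lower. Of the 1684 genes, 520 (30.9%) kept their call when each D542G library was left out in turn. For the basal, keratinocyte, mesenchymal, hormone-sensing, milk, immediate early, metallothionein and class I lists, a direction in which edgeR called none also had 0 genes at an unadjusted p under 0.05 and 0 called by DESeq2. Genes named below kept their call with each D542G library left out unless the text says otherwise. Counts of list members called can be read against 4.71% higher and 4.49% lower. Counts without overlap can be read against 19.4% above and 19.2% below. The fit of the 6 libraries called 1773 higher and 1778 lower of 16141 genes, and the paired fit 1021 and 934 of 18298. Without WT N 3 the calls were 1230 and 1315, and without ML 3 they were 776 and 728.

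**Figure D1:**
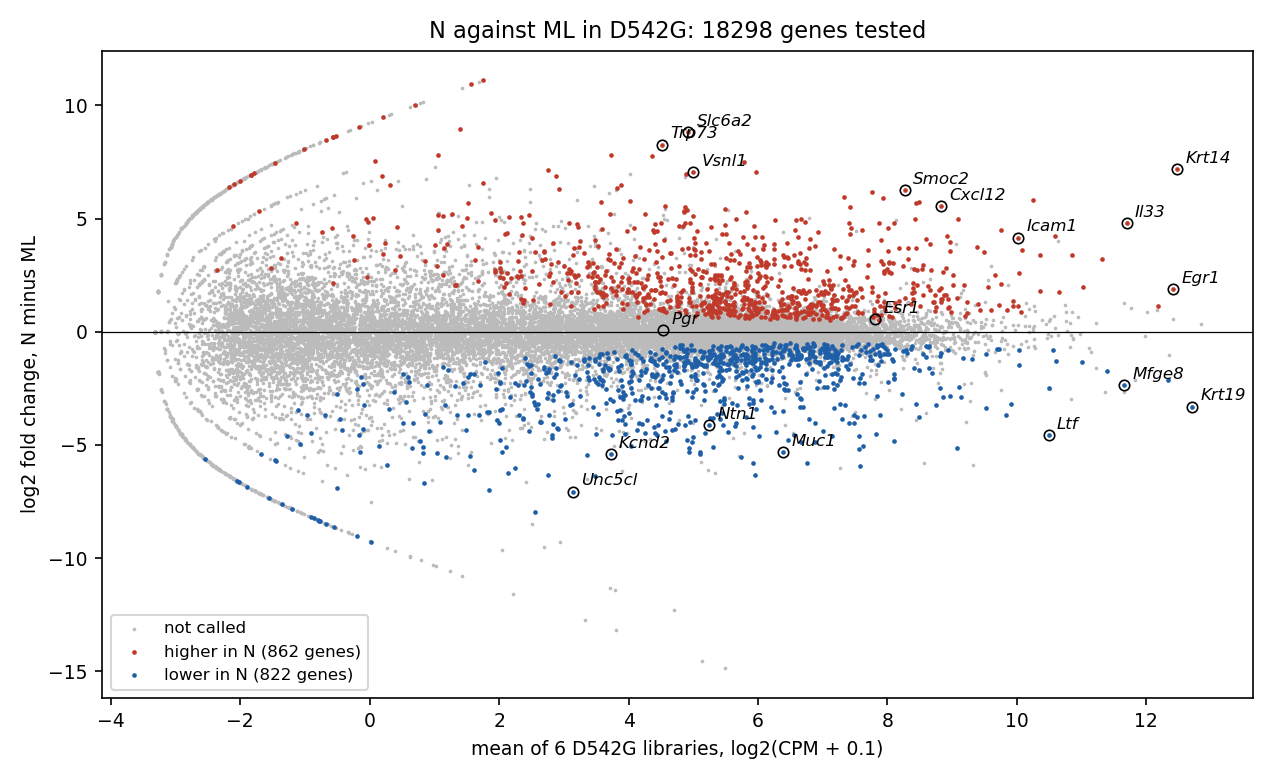
Each point is 1 of 18298 genes, by mean level over the 6 D542G libraries (x axis, log2 of CPM + 0.1) and log2 fold change of N over ML (y axis). Red genes (862) were called higher and blue genes (822) lower in N, grey genes were not called, and circles mark named genes; points on the outer curves at the left are genes with no count in 1 gate, whose fitted fold is not a measured size.

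The gene that carries the mutation, Esr1 (ENSMUSG00000019768, chromosome 10, 4611593 to 5005614, + strand of GRCm38), was expressed in both gates. Esr1 was measured at 313, 250.0 and 238 CPM in N and at 161, 164 and 216 CPM in ML libraries. The groups did not overlap, N being the higher, but the difference was not called (log2 fold change 0.56 ± 0.95, adjusted p = 0.774; 0.0698 in the fit of the 6 libraries). Gene counts do not show which allele was read. Pgr, the progesterone receptor and a target of ERα, was read at 24.2, 27.1 and 19.4 CPM in N and at 29.8, 29.4 and 8.81 CPM in ML (log2 fold change 0.06 ± 1.03, adjusted p = 0.986). The ERα cofactor Foxa1 stood at 817, 652 and 824 CPM against 802, 752 and 356 CPM (log2 fold change 0.26 ± 1.11, adjusted p = 0.919). Both overlapped between the gates, ML 3 being the lowest of the 6 libraries for each, and without it the log2 fold changes were −0.33 and −0.02, neither called. The ligand Areg, another ERα target, also overlapped, at 52.5, 59.6 and 59.5 CPM in N and 47.5, 67 and 26.4 CPM in ML libraries (adjusted p = 0.826).

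Other hormone-related genes did part the gates. Prlr, the prolactin receptor, stood at 151, 144 and 94.2 CPM in N and at 1284, 1556 and 1206 CPM in ML libraries, all N values lying under all ML values (log2 fold change −3.38 ± 0.82, adjusted p = 0.0301). Ccnd1, the cyclin that drives entry into the cell cycle, was lower too, at 57.5, 62.3 and 48.5 against 406, 501 and 295 CPM (log2 fold change −2.84 ± 0.37, adjusted p = 0.000927). Greb1, a direct ERα target, went the other way at low levels, 7.62, 10.5 and 6.36 CPM in N and 1.52, 2.49 and 2.38 CPM in ML (log2 fold change 1.94 ± 0.46, adjusted p = 0.0202). Of 25 estrogen-responsive genes tested, 6 were called higher and 5 lower (median −0.39). The higher ones included Rerg, a small GTPase of the Ras family, at 128, 122 and 132 CPM in N and 6.07, 6.52 and 14.3 CPM in ML (3.83 ± 0.40), the binding protein Igfbp4 (4.81 ± 0.59), the corepressor Nrip1 (1.22 ± 0.18) and the chemokine Cxcl12 (5.54 ± 0.63). Cxcl12 rose from 9.19, 13.8 and 34.3 CPM in ML to 661, 902 and 1097 CPM in N libraries. The lower ones included Igfbp5 (−2.76 ± 0.48). Tff1 and Tff3 had no count in any library, which need not mean silent genes, as set out at the end.

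Of 15 progesterone-responsive genes, 3 were higher and 3 lower in N (median −0.24). Progesterone acts on neighbouring cells through Tnfsf11 (RANKL) and Wnt4. Tnfsf11 was scarce, at 0, 0.159 and 0 CPM in N and 0.456, 1.5 and 7.45 CPM in ML (adjusted p = 0.188, 0.0428 in the fit of the 6 libraries). Wnt4 stood at 113, 98.7 and 99.3 CPM in N and 186, 221 and 186 CPM in ML. N was the lower without overlap, and Wnt4 was called only in the fit of the 6 libraries (−0.94 ± 0.39, adjusted p = 0.151 and 0.00383). Rspo1, a Wnt-potentiating ligand, was lower in N at 1.6, 1.41 and 1.85 against 9.67, 10.7 and 25.4 CPM (log2 fold change −3.23 ± 0.59, adjusted p = 0.00657). Calca, the calcitonin gene, was among the strongest decreases of all, at 1.33, 3.09 and 0.0704 CPM in N and 155, 154 and 60.1 CPM in ML (log2 fold change −6.35 ± 1.50, adjusted p = 0.046). The inhibitor of differentiation Id4 (3.47 ± 0.81) and the transcription factor Klf9 (1.47 ± 0.39) were higher in N. Prlr and Id4 lost the call without any 1 library but ML 3 (adjusted p up to 0.128), Greb1 without ML 1, ML 2, N 1 or N 2 (adjusted p up to 0.0956) and Calca without any 1 of the 6 libraries (adjusted p up to 0.151). Klf9 lost the call without ML 1, ML 2, N 2 or N 3 (adjusted p up to 0.137). Calca had a log2 fold change of −7.44 without N 2. Cxcl12 and Id4 had log2 fold changes of 6.27 and 4.48 without ML 3.

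**Figure D2:**
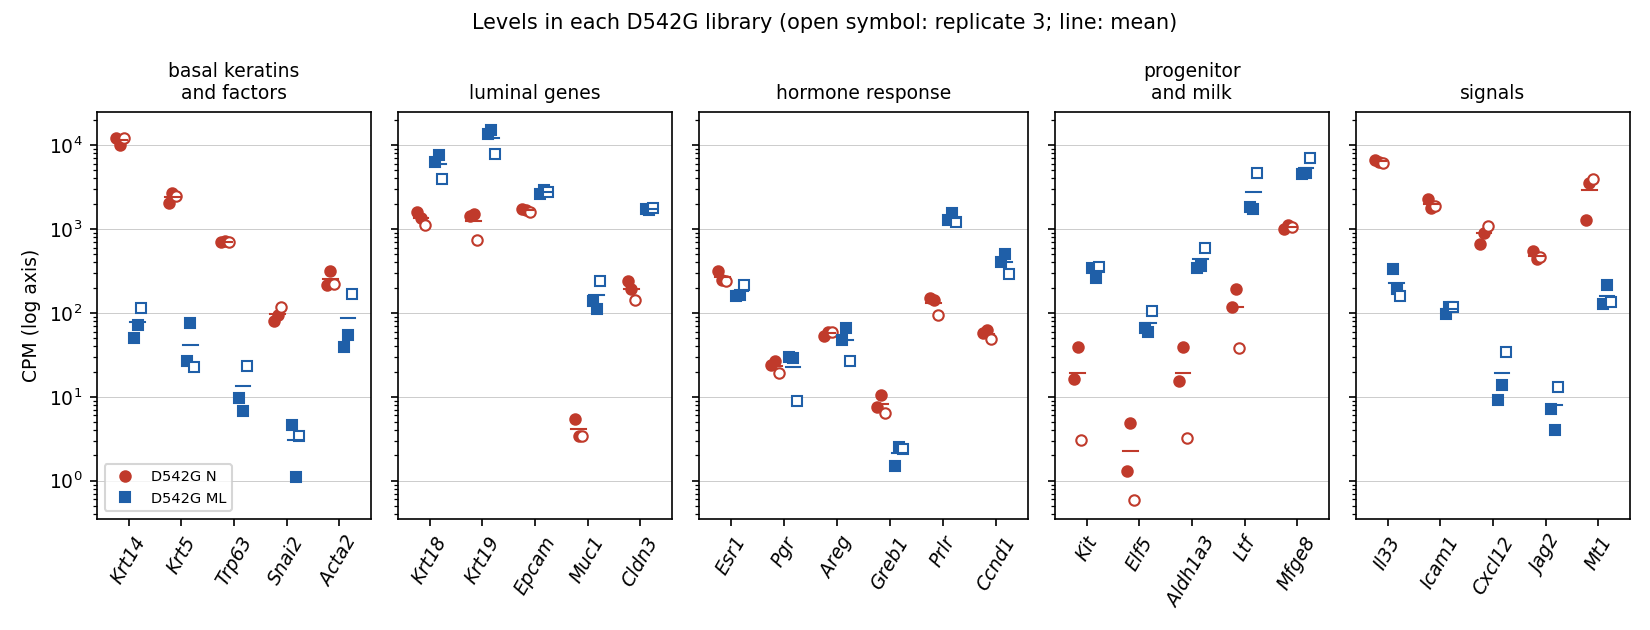
Level of 26 genes in each D542G library (CPM, log axis), N as red circles and ML as blue squares, with replicate 3 open and the mean of 3 libraries as a line. Krt14 stands near 10000 CPM in every N library and at 113 CPM or less in every ML library, Esr1 and Pgr lie close together in both gates, and Kit, Elf5 and Aldh1a3 are lowest in N 3.

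Basal genes were the clearest group on the N side. Of 22 basal and myoepithelial genes 11 were called higher and none lower, 19 lay above ML in all 3 N libraries, and the median was 2.44. Krt14 (ENSMUSG00000045545, chromosome 11, 100203162 to 100207548, − strand), a keratin of the basal layer, reached 12140, 9916 and 12000 CPM in N against 50.1, 71.4 and 113 CPM in ML libraries (log2 fold change 7.18 ± 1.04, adjusted p = 0.00521). By CPM it was the most abundant of all genes called higher. Its partner Krt5 reached 2015, 2713 and 2467 CPM in N and 27.1, 76.1 and 22.6 CPM in ML (log2 fold change 5.84 ± 1.30, adjusted p = 0.0346). Trp63, which encodes p63, stood at 701, 713 and 692 CPM in N and at 9.77, 6.79 and 23.3 CPM in ML libraries (log2 fold change 5.72 ± 1.26, adjusted p = 0.0325). Snai2, a repressor of epithelial junction genes that basal cells express, stood at 80.3, 94.1 and 118 against 4.58, 1.12 and 3.45 CPM (log2 fold change 5.0 ± 0.89, adjusted p = 0.00894). In each of these 4 genes the lowest N library lay far above the highest ML library. The contractile genes of the list were not called in the fit of 18 libraries. Acta2, smooth muscle actin, stood at 214, 318 and 221 CPM in N and at 39.5, 54.9 and 167 CPM in ML. ML 3 came close to N 1, and the gene was not called (log2 fold change 1.52 ± 0.63, adjusted p = 0.157). Without ML 3 Acta2 was called higher (2.41, adjusted p = 0.047). Myh11, Mylk, Tagln, Cnn1, Actg2 and the oxytocin receptor Oxtr were not called either. Without D542G ML 3 the list had 12 calls, without WT N 3 it had 15, and in the fit of the 6 libraries 16. Krt5 and Trp63 lost the call without any 1 of the 6 libraries (adjusted p up to 0.136). Krt5 had a log2 fold change of 6.59 without ML 2. Trp63 had a log2 fold change of 6.40 without ML 3.

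Keratinocyte and squamous genes had the highest median of the lists (3.94), with 6 of 18 called higher, none lower and 15 above ML without overlap. Krt6a, a keratin of activated and wounded epidermis, stood at 1618, 1424 and 1940 CPM in N and 89.6, 45.4 and 85.1 CPM in ML (log2 fold change 4.50 ± 0.78, adjusted p = 0.00701). Krt6b, a close copy of it, stood at 45.8, 31.2 and 46.4 against 2.18, 0.731 and 2.77 CPM (4.44 ± 0.87). Reads of the pair may be split between them. The desmosome gene Pkp1 (2.65 ± 0.67), P-cadherin Cdh3 (5.51 ± 1.13) and the serpin Serpinb5 (1.61 ± 0.41), all found in basal and squamous epithelia, were also higher. This count was 14 in the paired fit, 15 in the fit of the 6 libraries and 3 without ML 3. Genes of terminal epidermal differentiation, such as Krt1, Krt10 and Lor, were not called (0 of 9 by edgeR, 0 at an unadjusted p under 0.05 and 1 by DESeq2). They summed to 52, 991 and 52.6 CPM in N and 27.5, 143 and 37.6 CPM in ML libraries. N 2 was the high library of the 6. Krt6b lost the call without ML 1 or ML 2 (adjusted p up to 0.0653), Pkp1 and Serpinb5 without any 1 of the 6 libraries (adjusted p up to 0.121) and Cdh3 without ML 1, ML 2, N 1 or N 3 (adjusted p up to 0.1). Cdh3 had a log2 fold change of 6.58 without ML 3.

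Genes of attachment to the basement membrane went with the basal keratins. Of 27 integrin and laminin genes 10 were called higher and none lower (median 0.93; 1 lower at an unadjusted p under 0.05 and 1 by DESeq2). Integrin β4, which pairs with integrin α6 in hemidesmosomes, was encoded by Itgb4 at 576, 499 and 519 CPM in N and 53, 54.9 and 107 CPM in ML (log2 fold change 2.89 ± 0.37, adjusted p = 0.000737). Itga6 stood at 659.8, 647 and 709.5 against 234, 195 and 310.4 CPM (log2 fold change 1.45 ± 0.34, adjusted p = 0.0176), and Itga3, the α3 chain, at 426, 333 and 390.1 against 133, 111 and 108 CPM (1.71 ± 0.24). Their ligand laminin-332 is made of 3 chains. Lama3 stood at 249.6, 218 and 233 CPM in N and 4.81, 6.17 and 21.6 CPM in ML (log2 fold change 4.42 ± 0.68, adjusted p = 0.00323), and Lamb3 at 604, 583 and 545 against 40.9, 33.9 and 110.2 CPM (3.23 ± 0.51). For both chains ML 3 held the most of the ML libraries but far less than any N library. Lamb1, a chain of other laminins, stood at 399.8, 301 and 298 against 14.1, 9.4 and 18.8 CPM (log2 fold change 4.56 ± 0.44, adjusted p = 0.000213). Itgb1, whose product pairs with most α chains, differed little. It stood at 854, 854 and 926 CPM in N and 626, 577 and 584 CPM in ML, N above ML without overlap, and was not called (log2 fold change 0.56 ± 0.25, adjusted p = 0.179; 0.0203 in the fit of the 6 libraries). Itga6 lost the call without ML 1, ML 2, N 1 or N 3 (adjusted p up to 0.0849). Lama3 and Lamb3 had log2 fold changes of 5.41 and 3.95 without ML 3.

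Collagen genes were split, with 7 of 23 higher and 2 lower (median 1.11). Col17a1, the transmembrane collagen of hemidesmosomes, stood at 451, 443 and 392 CPM in N and 1.47, 7.74 and 8.5 CPM in ML (log2 fold change 6.18 ± 1.14, adjusted p = 0.0149). Col18a1, a basement membrane collagen, stood at 303, 295 and 382 against 12.5, 7.27 and 15.7 CPM (4.79 ± 0.67), with Col14a1 (4.61 ± 0.77) and Col16a1 (3.02 ± 0.35) also higher. Col8a1 was lower, at 10.7, 11.6 and 12.4 CPM in N and 109.5, 133 and 907 CPM in ML (log2 fold change −5.05 ± 0.90, adjusted p = 0.0094), ML 3 being far above the other ML libraries. The fibrillar genes Col1a1, Col1a2 and Col3a1 were not called. Of 19 metalloproteinase and inhibitor genes 3 were higher. Adamts1, a secreted protease, stood at 1316, 1205 and 1473 CPM in N and 87.5, 84.3 and 172 CPM in ML (log2 fold change 3.54 ± 0.38, adjusted p = 0.000331). The gelatinase Mmp2 (3.42 ± 0.55) and Mmp11 (3.19 ± 0.57) were the others. Smoc2, a matrix protein that binds growth factors, stood at 677, 521 and 629.8 CPM in N against 5.47, 8.54 and 10.1 CPM in ML libraries (log2 fold change 6.24 ± 0.89, adjusted p = 0.00345). Col17a1 lost the call without ML 1 or ML 2 (adjusted p up to 0.0702) and Col8a1 without N 1 or N 3 (adjusted p up to 0.0513). Col8a1 had a log2 fold change of −3.39 without ML 3.

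Mesenchymal transition genes did not move as a block. Beside Snai2, Mmp2 and the matrix protein Tgfbi (4.67 ± 1.18), the receptor tyrosine kinase Axl was the only other of 20 called, at 1273, 929 and 974 CPM in N and 22.4, 29.1 and 48.1 CPM in ML (log2 fold change 5.0 ± 0.53, adjusted p = 0.000433). The median was 0.22 and none was lower. Vim, the intermediate filament of mesenchymal and some basal cells, stood at 80.6, 79 and 89.1 CPM in N and 23.3, 22.6 and 50.2 CPM in ML. N lay above ML throughout, and Vim was not called (log2 fold change 1.37 ± 0.47, adjusted p = 0.0885), but was in the fit of the 6 libraries (0.0234) and without ML 3 (1.85, adjusted p = 0.0487). Zeb1, Zeb2, Twist1, Cdh2 and Fn1 were not called. Tgfbi lost the call without any 1 of the 6 libraries (adjusted p up to 0.16).

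On the ML side, 5 of 19 pan-luminal genes were called lower in N and none higher (median −0.92; 1 higher at an unadjusted p under 0.05 and 1 by DESeq2), with 14 below ML without overlap. Krt19, a luminal keratin, was the most abundant gene called lower, at 1426, 1523 and 738 CPM in N and 13460, 15130 and 7846 CPM in ML (log2 fold change −3.30 ± 0.87, adjusted p = 0.0432). The tight junction gene Cldn3 stood at 240.4, 194 and 143 against 1739, 1692 and 1774 CPM (log2 fold change −3.17 ± 0.75, adjusted p = 0.0261). Spint1 (−1.68 ± 0.35) and Spint2 (−0.83 ± 0.24), inhibitors of membrane proteases, were lower as well. Krt18 stood at 1578, 1359 and 1119 CPM in N and 6216, 7638 and 3967 CPM in ML, its partner Krt8 at 217, 208 and 162 against 845, 1091 and 951 CPM, and the adhesion protein Epcam at 1718, 1675 and 1598 against 2629, 2877 and 2774 CPM. None of the 3 overlapped between the gates, and none was called in the fit of 18 libraries (adjusted p = 0.144, 0.101 and 0.27). In the fit of the 6 libraries the values were 0.00196, 0.000349 and 0.0109, and Krt8 was also called in the paired fit (0.0453). Cd24a overlapped, ML 3 standing at 401 CPM beside 443 to 476 CPM in N. The count of pan-luminal genes lower in N was 11 without WT N 3 and 11 in the fit of the 6 libraries. N libraries thus held luminal keratin and Epcam transcripts at levels well above 0 together with the basal keratins.

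Hormone-sensing luminal genes were called lower for 5 of 24 and higher for none (median −1.45). Gata3, a factor that maintains luminal fate, stood at 100.5, 130.5 and 128 CPM in N and 411, 538 and 345 CPM in ML (log2 fold change −1.85 ± 0.38, adjusted p = 0.0102). Fxyd2, a regulator of the sodium pump, stood at 7.07, 17.5 and 5.75 against 210.1, 456 and 432 CPM (log2 fold change −5.18 ± 1.25, adjusted p = 0.0426). The factor Creb3l1 (−2.10 ± 0.39) and the melanosome linker Mlph (−3.31 ± 0.70) were also lower. Prom1, a surface marker of this lineage, stood at 68.8, 56.4 and 36.9 CPM in N and 251, 373 and 432 CPM in ML. It did not overlap and was called only in the fit of the 6 libraries (−2.70 ± 1.04, adjusted p = 0.144 and 0.00118). Ly6a stood at 222, 267 and 247 CPM in N, a range that held ML 3 while ML 1 and ML 2 lay far above (log2 fold change −2.59 ± 0.81, adjusted p = 0.0733; −3.09 and 0.0302 without ML 3). The count of this list was 11 without WT N 3 and 13 in the fit of the 6 libraries. Krt19 and Fxyd2 lost the call without any 1 of the 6 libraries (adjusted p up to 0.17), Cldn3 and Spint2 without any 1 library but ML 3 (adjusted p up to 0.157) and Spint1 without N 3 (adjusted p up to 0.0749). Gata3 lost the call without N 1 (adjusted p up to 0.0544) and Mlph without ML 1, N 1, N 2 or N 3 (adjusted p up to 0.0833). Fxyd2 had a log2 fold change of −5.83 without N 2.

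Luminal progenitor genes were called lower for 8 of 17 and higher for none (median −3.25; 1 was higher at an unadjusted p under 0.05 and 0 by DESeq2). Kit, the stem cell factor receptor that marks luminal progenitors, stood at 16.2, 38.8 and 3.05 CPM in N and 341, 261 and 356 CPM in ML (log2 fold change −4.04 ± 0.61, adjusted p = 0.00268). The retinaldehyde dehydrogenase Aldh1a3 stood at 15.5, 39 and 3.19 against 344, 366 and 593 CPM (log2 fold change −4.50 ± 0.59, adjusted p = 0.00135). Elf5, the factor of the alveolar lineage, stood at 1.29, 4.9 and 0.587 against 65.5, 58.6 and 105 CPM (log2 fold change −5.07 ± 0.89, adjusted p = 0.00842). For each of the 3, N 2 was the highest and N 3 the lowest N library, and no N library reached the ML range. Lactoferrin, Ltf, stood at 118, 192 and 38.4 CPM in N and 1829, 1745 and 4705 CPM in ML (−4.57 ± 0.57), and the secreted Wfdc18 at 17.4, 62.4 and 9.2 against 709, 727 and 1696 CPM (−5.14 ± 0.82). Lcn2, which binds iron carriers of bacteria, was lower at −3.78 ± 0.60. Of 20 milk and alveolar genes 6 were called lower and none higher (median −4.55). In the paired fit 10 were lower, and 11 in the fit of the 6 libraries. Of the 6 calls, Ltf, Lcn2 and Elf5 were also among the 8 progenitor calls, so these counts overlap. Elf5 was also 1 of the 3 progesterone-responsive genes lower in N. Among the milk genes that kept their call throughout, Mfge8, a protein of milk fat globules, was the most abundant. It stood at 1000, 1113 and 1057 CPM in N and 4500, 4707 and 6979 CPM in ML (log2 fold change −2.35 ± 0.36, adjusted p = 0.00173). Btn1a1, also of the milk fat globule, stood at 4.96, 12.6 and 2.37 against 149, 151 and 287 CPM (−4.88 ± 0.96). These genes summed to 1379, 1659 and 1382 CPM in N and 7541, 7698 and 13750 CPM in ML libraries, ML 3 being the highest. The caseins Csn1s1, Csn1s2a and Csn2, Wap and Lalba were not called. Csn3 had no count in any library, which need not mean a silent gene, as set out at the end. Btn1a1 lost the call without N 1 or N 3 (adjusted p up to 0.0784). Aldh1a3, Btn1a1, Elf5, Kit and Wfdc18 had log2 fold changes of −5.54, −5.74, −6.34, −5.05 and −6.29 without N 2. Ltf had a log2 fold change of −3.94 without ML 3.

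Secretory and ciliary genes were lower for 4 of 13 and higher for 1 (median −3.73; 2 lower without ML 3). Clusterin, Clu, stood at 385, 446 and 496 CPM in N and 2487, 2694 and 2168 CPM in ML (log2 fold change −2.47 ± 0.42, adjusted p = 0.00364). Muc1, the mucin of the luminal surface and 1 of the pan-luminal genes called, stood at 5.44, 3.39 and 3.43 against 139.8, 110.5 and 238 CPM (log2 fold change −5.31 ± 0.58, adjusted p = 0.000507), and Muc20 at 0.844, 3.71 and 0.516 against 48.6, 50.8 and 102 CPM (−5.30 ± 0.72). Muc4 was scarce, at 0.0444, 0.0396 and 0.0704 CPM in N and 1.14, 2.3 and 17.2 CPM in ML, most of it in ML 3 (log2 fold change −7.00 ± 1.59, adjusted p = 0.0266; 0.0535 in the paired fit). Pigr, the receptor that carries antibodies into secretions, was lower at low levels (−5.09 ± 1.30). Slpi, an inhibitor of leukocyte proteases, was the 1 gene higher, at 116, 189.9 and 218 against 24.4, 17.4 and 22.2 CPM (log2 fold change 3.04 ± 0.81, adjusted p = 0.0424; 0.0815 in the paired fit). Muc4 lost the call without ML 3, N 1, N 2 or N 3 (adjusted p up to 0.107) and Pigr and Slpi without any 1 of the 6 libraries (adjusted p up to 0.163). Muc20 had a log2 fold change of −6.61 without N 2. Muc4 and Pigr had log2 fold changes of −4.99 and −4.43 without ML 3. Pigr had a log2 fold change of −6.17 without N 1.

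The other genes with the lowest fold changes were of many kinds. Unc5cl (ENSMUSG00000043592, chromosome 17, 48454901 to 48539714, + strand), a relative of netrin receptors, had the lowest of those the rule names, at 0.156, 0.0396 and 0.188 CPM in N and 17.1, 8.19 and 26.4 CPM in ML (log2 fold change −7.06 ± 1.51, adjusted p = 0.0261). The lipoxygenase Alox15 (−5.54 ± 0.79), the potassium channel Kcnd2 (−5.42 ± 0.61), the protease Tmprss6 (−5.78 ± 1.27), the uroplakin Upk2 (−5.81 ± 1.20), the nucleoside carrier Slc28a3 (−5.30 ± 1.12), Hhipl2 (−5.42 ± 0.92) and the apolipoprotein Apof (−6.37 ± 1.53) followed. Kcnd2 stood at 0.511, 0.872 and 0.399 CPM in N and 16.1, 13.1 and 47.7 CPM in ML libraries. Tmprss6 stood at 3.93, 5.04 and 2.58 CPM in N and 79, 93.8 and 462 CPM in ML. All N values lay below all ML values, and for both genes ML 3 was the highest. Unc5cl lost the call without ML 1, N 1, N 2 or N 3 (adjusted p up to 0.0998), Tmprss6 without any 1 of the 6 libraries (adjusted p up to 0.128) and Upk2 without any 1 library but ML 3 (adjusted p up to 0.0857). Slc28a3 lost the call without ML 2, N 1 or N 3 (adjusted p up to 0.0933) and Apof without any 1 library but N 2 (adjusted p up to 0.139). Alox15, Apof, Kcnd2 and Tmprss6 had log2 fold changes of −4.82, −5.52, −4.61 and −4.49 without ML 3. Apof had counts in only 1 N library (0, 0.773 and 0 CPM), so its fold rests on N 2 and is otherwise no measured size (fitted fold −12.83 without it). Hhipl2 and Slc28a3 had log2 fold changes of −6.15 and −6.18 without N 2.

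Among the highest fold changes were transporters of monoamines. Slc6a2 (ENSMUSG00000055368, chromosome 8, 92960079 to 93001667, + strand), which takes up norepinephrine, had the highest of those the rule names, at 52, 51.8 and 76.8 CPM in N and 0, 0.323 and 0.062 CPM in ML (log2 fold change 8.81 ± 1.54, adjusted p = 0.00863). Slc6a4, the serotonin transporter, stood at 61.1, 50.2 and 64.5 against 0.0253, 0.107 and 1.26 CPM (log2 fold change 6.95 ± 1.66, adjusted p = 0.0482). Vsnl1 (ENSMUSG00000054459, chromosome 12, 11325242 to 11436613, − strand), a neuronal calcium sensor, stood at 48, 67 and 74.9 CPM in N and 0.456, 0.28 and 0.682 CPM in ML. Its standard error was small beside its size (log2 fold change 7.05 ± 0.48, adjusted p = 3.6e-05). Serpina9, a protease inhibitor of germinal centre B cells (7.82 ± 1.83), and Hs6st2, which sulfates heparan chains (7.50 ± 1.38), completed the non-signalling genes of this set. Ngfr, the p75 neurotrophin receptor, is a basal as well as a Schwann cell marker. It had no count in any ML library and stood at 6.82, 5.61 and 4.79 CPM in N, at least 85.7-fold higher against a floor of 3 counts per library (adjusted p = 0.00243). Slc6a4 and Serpina9 lost the call without any 1 library but ML 3 (adjusted p up to 0.169) and Hs6st2 without ML 1 or ML 2 (adjusted p up to 0.0704). Slc6a4 had a log2 fold change of 9.68 without ML 3. For Slc6a2 each ML library other than ML 2 had at most 3 counts (fitted fold 10.69 without ML 2). For Serpina9 and Hs6st2 each ML library other than ML 3 had at most 3 counts (fitted folds 13.09 and 12.85 without ML 3). These folds rest on the counts of that library and are otherwise no measured size.

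Several Notch ligands were higher in N. The pathway signals between touching cells and favours luminal fate where its receptors are active. Jag2 stood at 550.2, 435 and 459 CPM in N and 7.16, 4.02 and 13.1 CPM in ML (log2 fold change 5.89 ± 1.15, adjusted p = 0.0191). Dll1, a ligand of mammary stem cells, stood at 105, 96.1 and 129 against 3.59, 1.59 and 3.35 CPM (log2 fold change 5.27 ± 0.65, adjusted p = 0.00112), and Jag1 at 225, 187 and 223 against 54.8, 45.2 and 32.6 CPM (log2 fold change 2.26 ± 0.36, adjusted p = 0.00224). No N library of these ligands overlapped with ML. Dlk2, an atypical ligand, was close to absent from ML at 0, 0.086 and 0.455 CPM and stood at 38.6, 38.5 and 45.2 CPM in N (log2 fold change 7.76 ± 1.25, adjusted p = 0.00656). Of the receptors, Notch3 was lower in N, at 9.87, 7.45 and 2.84 against 36.5, 35 and 40.2 CPM (log2 fold change −2.47 ± 0.38, adjusted p = 0.00199), and Notch1, Notch2 and Notch4 were not called. The targets Hes1, Hey1 and Nrarp were not called, and of 22 genes of the pathway 4 were higher and 1 lower, with a median of 0.28 (2 lower in the paired fit). Jag2 lost the call without ML 1 or ML 2 (adjusted p up to 0.0925). Dlk2 had a log2 fold change of 9.72 without ML 3.

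Of 28 Wnt pathway genes, 9 were higher and 2 lower (median 1.08; 6 higher without ML 3). Wnt10a, a ligand of basal cells, stood at 129, 97.1 and 146 CPM in N and 0.329, 1.42 and 1.05 CPM in ML (log2 fold change 7.04 ± 1.52, adjusted p = 0.0338). Wnt11 stood at 174, 134 and 148 against 16.2, 14.4 and 12.6 CPM (log2 fold change 3.40 ± 0.59, adjusted p = 0.00521), while Wnt5b was lower at 57.8, 68 and 60.3 against 236, 223 and 292 CPM (log2 fold change −2.01 ± 0.26, adjusted p = 0.000715). The ligands thus differed in direction. Dkk3, a secreted modulator, stood at 642, 647 and 656 CPM in N and 33.3, 33.8 and 80.7 CPM in ML (3.72 ± 0.49). The receptor Fzd7 (1.42 ± 0.23) and the R-spondin receptor Lgr6 (2.02 ± 0.31), both found in basal and stem cells, were higher. The target genes Axin2, Lef1, Tcf7, Nkd1, Znrf3 and Rnf43 were not called. Wnt10a lost the call without any 1 of the 6 libraries (adjusted p up to 0.134).

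TGF-beta and BMP genes were higher for 9 of 26 and lower for 1 (median 1.51). Follistatin, Fst, which traps activins, stood at 315, 261 and 376 CPM in N and 2, 7.96 and 5.38 CPM in ML (log2 fold change 5.95 ± 0.80, adjusted p = 0.00217). Id1, a BMP target, stood at 293, 234 and 437 against 32.3, 50.9 and 27.6 CPM (log2 fold change 3.12 ± 0.47, adjusted p = 0.00186). The ligand Tgfb1 (0.98 ± 0.16), the co-receptor Tgfbr3 (2.90 ± 0.32) and the protease Bmp1 (1.58 ± 0.32) were higher. Tgfbr3 stood at 136, 152 and 157 CPM in N and 20.4, 13.2 and 25.8 CPM in ML, with N and ML far apart. ErbB genes were mixed, with 6 of 18 higher and 3 lower (9 and 5 in the paired fit). The neuregulins Nrg1 (1.95 ± 0.42) and Nrg2 (2.93 ± 0.51), ligands made by basal cells, were higher, and Erbb3, a receptor of neuregulins, was lower at 98, 90.4 and 55.4 CPM in N and 287, 255 and 221 CPM in ML (log2 fold change −1.65 ± 0.32, adjusted p = 0.00656). The feedback inhibitors Errfi1 (1.81 ± 0.27) and Lrig1 (1.60 ± 0.30) were higher. Nrg1 lost the call without ML 2 or N 3 (adjusted p up to 0.0533).

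Insulin-like growth factor genes changed mainly in their binding proteins, with 3 of 14 members higher and 1 lower. Igfbp4 stood at 507, 467 and 616 CPM in N and 15.5, 14.3 and 26.9 CPM in ML (log2 fold change 4.81 ± 0.59, adjusted p = 0.000986), and Igfbp2, whose promoter is printed below, at 21.3, 28.4 and 37.6 against 0.81, 0.0215 and 0.165 CPM (log2 fold change 6.46 ± 1.33, adjusted p = 0.0233). Igfbp5, which rises when the gland involutes, was the 1 member lower, at 85.8, 100.3 and 45.7 CPM in N and 542.4, 366 and 658 CPM in ML (log2 fold change −2.76 ± 0.48, adjusted p = 0.00449). The adaptor Irs2 was higher (1.63 ± 0.37), and Igf1, Igf2 and Igf1r were not called. Axon guidance genes, which also place epithelial cells, were higher for 6 of 35 and lower for 3 (11 higher in the paired fit and 16 in the fit of the 6 libraries). Ntn1, netrin-1, stood at 4.04, 4.97 and 3.36 CPM in N and 57.5, 61 and 96.4 CPM in ML (log2 fold change −4.12 ± 0.39, adjusted p = 0.000162), and Sema4d was lower (−1.47 ± 0.31). The semaphorin receptor Plxna1 (1.78 ± 0.34), the Eph receptor Ephb4 (1.30 ± 0.25) and Sema3a (4.66 ± 0.94) were higher. Igfbp2 lost the call without ML 2, ML 3 or N 3 (adjusted p up to 0.0915), Irs2 without ML 1, ML 2 or N 3 (adjusted p up to 0.084) and Sema4d without ML 1 or N 3 (adjusted p up to 0.0702). Sema3a lost the call without ML 1 or ML 3 (adjusted p up to 0.0585). Igfbp2 had a log2 fold change of 8.23 without ML 1. Sema3a had a log2 fold change of 6.44 without ML 2.

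Transcription factors outside these pathways were read as well. Trp73, which encodes p73, the relative of p63, stood at 56.4, 37.8 and 41.9 CPM in N and 0.43, 0 and 0.0207 CPM in ML (log2 fold change 8.27 ± 1.27, adjusted p = 0.00532). Sox4 stood at 1323, 1141 and 2905 against 274, 261 and 355 CPM (log2 fold change 2.59 ± 0.42, adjusted p = 0.00284), N 3 being the highest, and Klf5, a factor of proliferating epithelium, at 612, 617 and 852 against 205, 187 and 190.1 CPM (1.84 ± 0.35). Sox10, which marks progenitor and neural crest cells, was lower at 9.98, 13.7 and 7.35 against 65, 49.8 and 121 CPM (log2 fold change −2.93 ± 0.56, adjusted p = 0.00815). Runx1 (1.31 ± 0.31) and Myb (3.89 ± 0.72) were higher. Myb, known to be driven by estrogen in breast cancer cells, stood at 132, 174 and 119 CPM in N and 8.25, 6.24 and 14.3 CPM in ML. Of 29 nuclear receptors, the glucocorticoid receptor Nr3c1 was the 1 called higher (1.62 ± 0.32) and Esrrg the 1 called lower (−3.96 ± 1.05, adjusted p = 0.0485; 0.0654 in the paired fit). Sox10 lost the call without N 3 (adjusted p up to 0.0527), Runx1 without ML 1, ML 2 or N 3 (adjusted p up to 0.0809) and Myb without ML 2 (adjusted p up to 0.051). Esrrg lost the call without any 1 of the 6 libraries (adjusted p up to 0.163). Trp73 had a log2 fold change of 7.67 without ML 2. Without ML 1 it had at most 3 counts in the rest of the ML gate (fitted fold 11.72), so its fold rests on the counts of that library and is otherwise no measured size.

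Immediate early genes, which growth factors and handling of tissue both induce, were called higher for 6 of 24 and lower for none, and 19 lay above ML without overlap (median 0.94; 14 called in the fit of the 6 libraries and 10 without WT N 3). Egr1 stood at 7997, 9423 and 8427 CPM in N and 1456, 2106 and 3400 CPM in ML (log2 fold change 1.89 ± 0.44, adjusted p = 0.0194), and Egr2 at 392, 434 and 506 against 57.4, 67 and 73.2 CPM (log2 fold change 2.75 ± 0.39, adjusted p = 0.00125). Junb stood at 4877, 7250 and 7010 CPM in N and 2744, 2894 and 3153 CPM in ML (log2 fold change 1.12 ± 0.28, adjusted p = 0.0255), and Myc at 548, 642 and 720.3 against 142, 185 and 142 CPM (log2 fold change 2.03 ± 0.32, adjusted p = 0.00213). N was above ML in every library pair for these 4, and the folds of Egr1 and Junb were the smallest. The list summed to 54290, 61760 and 61870 CPM in N and 25210, 29450 and 40940 CPM in ML libraries. Ccn1, a matrix protein induced by stretch and by serum, stood at 4260, 4331 and 5136 CPM in N and 289.9, 253 and 962 CPM in ML (log2 fold change 3.19 ± 0.68, adjusted p = 0.0154). The part of sorting or dissociation in these values was not tested. Egr1 and Junb lost the call without ML 1, ML 2, N 2 or N 3 (adjusted p up to 0.099) and Ccn1 without ML 1 or ML 2 (adjusted p up to 0.0777). Ccn1 had a log2 fold change of 4.08 without ML 3.

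Mt1 and Mt2, metallothioneins that bind zinc and respond to metals and glucocorticoids, were higher in N. Mt1 stood at 1272, 3581 and 3945 CPM in N and 129, 214 and 133 CPM in ML (log2 fold change 4.21 ± 0.54, adjusted p = 0.00112). Mt2 stood at 321, 828 and 857 against 17.4, 28.7 and 17.1 CPM (log2 fold change 4.99 ± 0.69, adjusted p = 0.00192). N 1 held the least of both in the N gate, still several times the highest ML library. Sgk1, a kinase induced by glucocorticoids, stood at 3801, 2828 and 3335 CPM in N and 829.6, 912 and 774 CPM in ML (log2 fold change 1.99 ± 0.27, adjusted p = 0.000986). Of 13 metallothionein and glucocorticoid genes 6 were higher and none lower (median 1.14), while Fkbp5, Tsc22d3, Per1 and Zbtb16 were not called. Among clock genes Nfil3 (2.51 ± 0.30) and Arntl (2.44 ± 0.50) were higher and the other 14 were not called. Arntl lost the call without ML 1 (adjusted p up to 0.0583). Arntl had a log2 fold change of 3.14 without ML 3.

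Il33, an alarmin held in the nucleus of epithelial cells, was among the most abundant genes higher in N. It stood at 6722, 6329 and 6154 CPM in N and 336, 195 and 158 CPM in ML libraries (log2 fold change 4.80 ± 0.96, adjusted p = 0.016). The receptor Il1r1 was higher (1.47 ± 0.31), and Il1a, Il1b and the Il33 receptor Il1rl1 were not called. Icam1 (ENSMUSG00000037405, chromosome 9, 21015985 to 21028817, + strand), an adhesion molecule for leukocytes and a classical NF-kB target, stood at 2249, 1784 and 1874 CPM in N and 97.5, 118 and 117 CPM in ML. Its groups were far apart and tight (log2 fold change 4.15 ± 0.30, adjusted p = 2.9e-05). The NF-kB list itself was mixed, with 3 of 19 higher and 1 lower (median 0.55). Birc3 stood at 149.9, 175 and 154 CPM in N and 60.4, 76.5 and 72.5 CPM in ML (1.19 ± 0.21), the chemokine Cxcl1 at 76.4, 216 and 148 against 38.4, 47.5 and 28.9 CPM (1.94 ± 0.51), and Tnfaip2 was lower at 0.6, 4.32 and 1.15 against 32.1, 31.9 and 36.5 CPM (−4.04 ± 0.59). The inhibitors Nfkbia and Tnfaip3 were not called. Il33 lost the call without ML 1, ML 2 or ML 3 (adjusted p up to 0.0801), Il1r1 without N 1 (adjusted p up to 0.0561) and Cxcl1 without any 1 library but N 1 (adjusted p up to 0.129). Tnfaip2 had a log2 fold change of −5.25 without N 2.

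Transcripts of class I antigen presentation genes were lower in N where they were called. Of 10 genes 5 were called lower, none higher, and 8 lay below ML without overlap (median −1.30). H2-K1 stood at 512, 569 and 583 CPM in N and 1795, 1553 and 1251 CPM in ML (log2 fold change −1.47 ± 0.28, adjusted p = 0.00646), and H2-D1 at 1075, 1125 and 1260 against 3549, 3107 and 2219 CPM (log2 fold change −1.36 ± 0.29, adjusted p = 0.0117). The immunoproteasome subunits Psmb8 (−1.94 ± 0.33) and Psmb9 (−1.69 ± 0.38) and the peptide carrier Tap2 (−1.24 ± 0.28) were lower, with ML 3 the lowest ML library for all of these. H2 genes share sequence, and reads may be split among them. B2m and H2-T23, also on this list, had no count in any library and were not tested. Interferon-responsive genes were lower for 3 of 24 (5 in the paired fit, 8 in the fit of the 6 libraries), among them Oas1a (−3.10 ± 0.59) and Bst2 (−1.67 ± 0.45). Irf1 was the 1 gene higher (1.5 ± 0.32). H2-D1 lost the call without ML 1 or N 1 (adjusted p up to 0.0577), Psmb9, Tap2 and Bst2 without any 1 library but ML 3 (adjusted p up to 0.125) and Oas1a without N 3 (adjusted p up to 0.0527). Irf1 lost the call without ML 1 or N 2 (adjusted p up to 0.0567).

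Proliferation did not part the gates. Mki67 stood at 1.29, 0.278 and 2.28 CPM in N and 0.683, 0.839 and 3.08 CPM in ML (log2 fold change −0.26 ± 1.28, adjusted p = 0.932), and none of 29 cell cycle genes was called by edgeR, 0 had an unadjusted p under 0.05, and 0 were called by DESeq2 (median −0.55). Inhibitors and p53 genes were mixed, with 7 of 22 higher and 3 lower (3 higher without ML 3). Cdkn1c, which encodes p57, stood at 26.7, 21.4 and 27.9 CPM in N and 3.69, 2.79 and 3.87 CPM in ML (log2 fold change 2.87 ± 0.42, adjusted p = 0.00154), and Cdkn2c, which encodes p18, at 4, 4.74 and 4.44 against 21, 23.7 and 14.4 CPM (log2 fold change −2.17 ± 0.33, adjusted p = 0.00156). The inhibitors thus differed in direction without overlap of the gates. Trp53 was higher (1.17 ± 0.24) and the apoptosis gene Bax lower (−0.91 ± 0.21). Trp53 lost the call without ML 1 (adjusted p up to 0.0513) and Bax without ML 1, N 1 or N 2 (adjusted p up to 0.0768).

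Lipid synthesis genes were lower where they were called. Sqle, a rate-limiting enzyme of cholesterol synthesis, stood at 22.3, 36.5 and 8.94 CPM in N and 162, 218 and 159.6 CPM in ML (log2 fold change −2.99 ± 0.57, adjusted p = 0.00826). The regulator of that pathway, Srebf2 (−1.43 ± 0.30), and Pmvk (−1.41 ± 0.40) made up 3 of 18 lower, and 10 were lower in the fit of the 6 libraries. Fads2, a fatty acid desaturase, stood at 18.3, 23.1 and 12.2 CPM in N and 167, 154 and 224 CPM in ML (log2 fold change −3.35 ± 0.47, adjusted p = 0.00141). Dgat2, which completes triglycerides, stood at 95.5, 149 and 85 against 878, 1041 and 538 CPM (log2 fold change −2.90 ± 0.79, adjusted p = 0.045). Fatty acid synthesis genes were lower for 3 of 18 (5 in the paired fit). Glycolysis and hypoxia genes were lower for 5 of 21 and higher for 2 (3 lower in the paired fit). The pyruvate kinase gene Pkm was lower (−1.31 ± 0.31), and Ndrg1, induced by stress and hypoxia, was higher at 486, 421 and 488 CPM in N and 45.8, 44.2 and 74.6 CPM in ML (log2 fold change 3.08 ± 0.39, adjusted p = 0.000754), as was hexokinase Hk2 (1.83 ± 0.44). Oxidative phosphorylation genes were lower for 1 of 25. Of unfolded protein and heat shock genes, Atf4 was higher (1.71 ± 0.44) and Sdf2l1 lower (−1.89 ± 0.39). Srebf2 and Sdf2l1 lost the call without N 3 (adjusted p up to 0.0585), Pmvk and Dgat2 without any 1 of the 6 libraries (adjusted p up to 0.171) and Pkm and Atf4 without any 1 library but ML 3 (adjusted p up to 0.132). Hk2 lost the call without any 1 library but N 2 (adjusted p up to 0.0782).

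**Figure D3:**
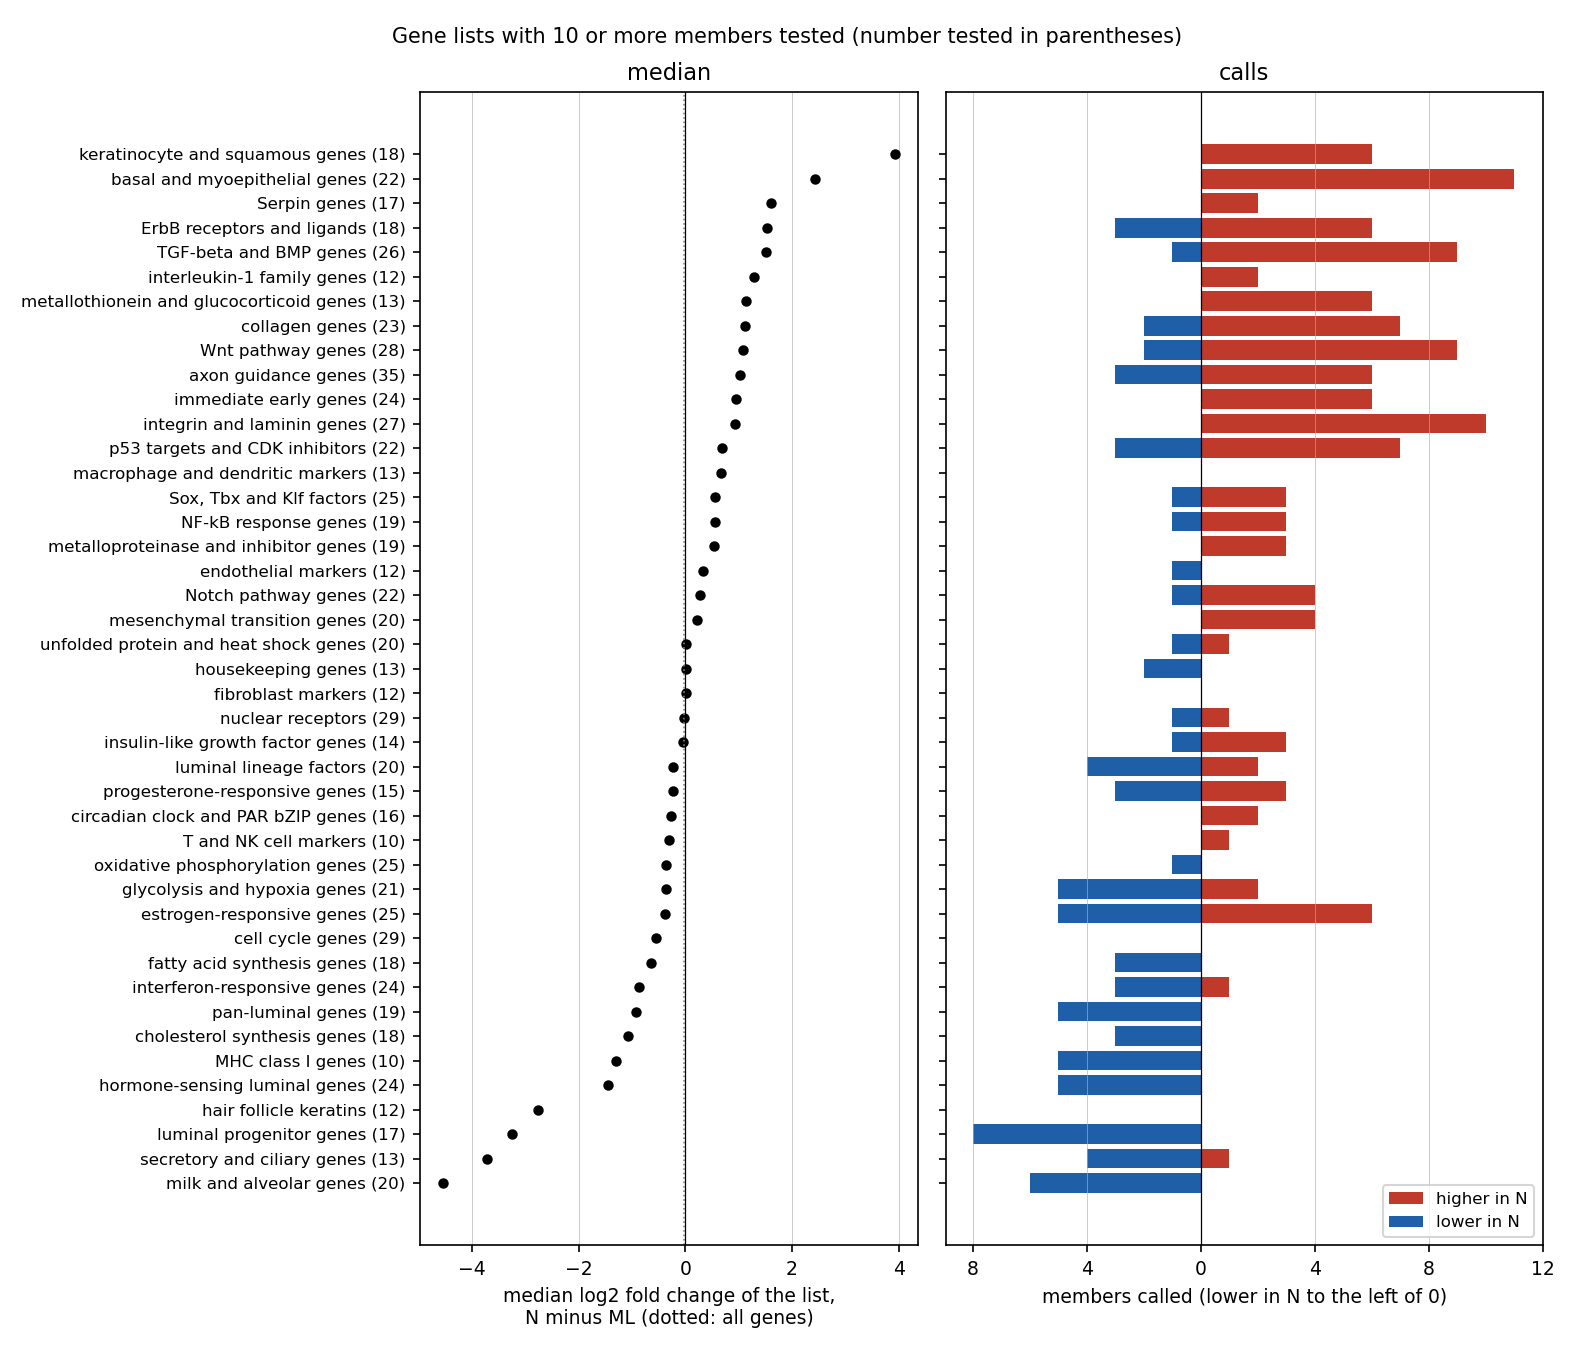
Median log2 fold change of N over ML (left; dotted line, the median of all genes at −0.03) and number of members called higher (red) or lower (blue) in N (right) for each gene list with 10 or more members tested. Keratinocyte and basal genes lie at the top, with medians of 3.94 and 2.44, and progenitor, secretory and milk genes at the bottom, with medians of −3.25, −3.73 and −4.55.

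Marker lists of other cell types were read in both gates. Fibroblast markers (0 of 12 called by edgeR, 1 at an unadjusted p under 0.05 and 0 by DESeq2) summed to 504, 389.5 and 429 CPM in N and 430.5, 318 and 203 CPM in ML libraries. Endothelial markers summed to 172, 169 and 269.7 CPM in N and 227, 252 and 291 CPM in ML libraries, and Vwf was the 1 of 12 called, lower in N (−2.36 ± 0.48). Macrophage and dendritic markers (0 of 13 by edgeR, 1 at an unadjusted p under 0.05 and 1 by DESeq2) summed to 44.1, 136 and 20.4 CPM in N and 42.8, 56.6 and 72.3 CPM in ML libraries. N and ML overlapped in all 3 sums. T and NK cell markers summed to 11.1, 15.7 and 18.9 CPM in N and 6.68, 5.5 and 8.17 CPM in ML libraries, N 3 and N 2 being the highest, and Trbc2, a T cell receptor constant segment, was called higher (2.67 ± 0.61). Of pericyte markers Mcam, also made by basal cells, was higher (2.37 ± 0.35) and Notch3 lower. None of 7 adipocyte, 7 B and plasma cell, 6 mast cell and neutrophil, 4 erythroid, 7 skeletal muscle and 3 melanocyte markers was called by edgeR. The B and plasma cell markers summed to 1069, 893.5 and 868.3 CPM in N and to 1246, 764 and 301 CPM in ML libraries, which overlapped. Most of that was Sdc1, a syndecan that epithelial cells also make, at 1054, 886 and 855 CPM in N and 987, 678 and 282.5 CPM in ML. Adipocyte markers summed to 103, 192 and 330.1 CPM in N and to 70.6, 141 and 184 CPM in ML, and erythroid markers to 39.4, 45.2 and 267 CPM in N against 23.8, 25.4 and 35.5 CPM in ML, N 3 being the highest of both. The erythroid sums did not overlap and the adipocyte sums did. At an unadjusted p under 0.05 the numbers of these 6 lists were 2, 0, 0, 4, 2 and 0, and DESeq2 called 1, 0, 0, 2, 1 and 0. Immunoglobulin genes summed to 26.5, 6.48 and 14 CPM in N and to 835, 413 and 172 CPM in ML libraries, without overlap. Of 46 such genes tested edgeR called 0, 14 had an unadjusted p under 0.05, and DESeq2 called 14. Hair follicle keratins reached 152 CPM in ML 1 and 6.87 CPM or less in the 5 other libraries. The part of such cells in the genes above was not tested. Vwf lost the call without N 3 (adjusted p up to 0.0611) and Trbc2 without ML 1, ML 3 or N 3 (adjusted p up to 0.0872).

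Some of the genes named have a promoter sequence at hand. RefSeq (GRCm38.p6) gave a window of 250 bases upstream of an annotated start for 1238 of the 1684 called genes and for 134 of the 194 genes chosen by name or rule. The 3 genes whose windows are printed, and the motif marked in each, were picked by hand and not by a rule. They are a binding protein and an adhesion molecule that were higher in N and the mucin that was lower. Each window holds a short motif of a known class of factors, in capitals. Igfbp2 (chr1:72825137-72825386, + strand, 1 of 2 annotated starts) has TGANTCA, the AP-1 motif bound by Fos and Jun proteins. The window of its other start (chr1:72824230-72824479), not printed, has no match to these letters. Icam1 (chr9:21015690-21015939, + strand) has GGANNTTCC, an NF-kB-like motif. Muc1 (chr3:89228806-89229055, + strand) has 2 copies of CACCTG, an E-box bound by repressors of the Snail family. Capitals mark only the motif named for each gene, and the Icam1 window also holds CACCTG, left in lower case.
Igfbp2: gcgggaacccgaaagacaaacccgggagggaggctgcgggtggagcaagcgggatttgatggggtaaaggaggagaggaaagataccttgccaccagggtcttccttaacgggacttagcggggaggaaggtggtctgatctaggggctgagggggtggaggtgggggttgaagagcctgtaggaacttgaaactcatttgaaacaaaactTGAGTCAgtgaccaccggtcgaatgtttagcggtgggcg
Icam1: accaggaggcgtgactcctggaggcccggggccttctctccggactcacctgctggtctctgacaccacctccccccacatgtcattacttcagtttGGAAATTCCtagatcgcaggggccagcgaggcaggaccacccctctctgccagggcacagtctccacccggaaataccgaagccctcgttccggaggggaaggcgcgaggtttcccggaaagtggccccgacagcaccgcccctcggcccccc
Muc1: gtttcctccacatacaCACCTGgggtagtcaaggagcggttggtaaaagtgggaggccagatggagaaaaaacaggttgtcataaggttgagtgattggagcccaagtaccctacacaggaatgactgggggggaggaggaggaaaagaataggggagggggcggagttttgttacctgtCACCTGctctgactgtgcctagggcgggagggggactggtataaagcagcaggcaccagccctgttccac
Letters were matched on both strands. AP-1 letters start 39 bases before the Igfbp2 start of the printed window, the NF-kB-like letters 153 bases before that of Icam1, and the E-boxes 234 and 70 bases before that of Muc1. Of all 32851 windows of this length 6.75% hold the AP-1 letters, 3.59% the NF-kB-like letters and 17.22% the E-box. Among tested genes with a window, the AP-1 letters were found for 8.31% of those higher in N, 5% of those lower and 6.3% of all. The E-box was found for 18.34%, 25.83% and 19.42%, and the NF-kB-like letters for 4.55%, 4.67% and 4.62%. The full palindromic estrogen response element was found in 0.06% of all windows and in none of those of called genes. A match describes the letters only and says nothing of binding.

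The same contrast in the other genotypes shows where D542G departs. In WT 646 genes (3.53%) and in Y541S 1272 (6.95%) were called between the gates. Of the D542G calls 329 were called in the same direction in WT (19.5% of the D542G and 50.9% of the WT calls), and 611 in Y541S (36.3% and 48.0%), while 5 and 8 were called in the opposite direction. Called or not, the fold change had the same sign in WT for 1500 of the D542G calls (89.1%) and in Y541S for 1558 (92.5%). The difference between the genotypes itself was tested for every gene. Against WT, 20 genes differed (0.109%), 19 with a higher value in D542G (0.104%) and 1 with a lower (0.00547%). Against Y541S, 20 differed (0.109%), 11 higher (0.0601%) and 9 lower (0.0492%; 6 and 1 in the paired fit). At these numbers most called genes, the keratins included, showed no tested difference between genotypes, which does not show that the gate differences are alike. Without WT N 3, a library that lay between the gates, 119 genes were higher and 30 lower against WT.

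Pde4b, which breaks down cyclic AMP, had the smallest adjusted p against WT and was singled out for that after the values were seen. It stood at 3447, 2730 and 3898 CPM in D542G N and 284, 339 and 332 CPM in D542G ML, and at 624, 649.6 and 612 CPM in WT N and 597, 606 and 604 CPM in WT ML. The gates lay close together in WT and far apart in D542G, and the difference of the log2 fold changes was 3.34 ± 0.31 (adjusted p = 0.000609). Against Y541S it was 1.45 ± 0.31 (0.122). Rerg stood at 22.9, 9.67 and 11.9 CPM in WT N and 19.1, 21.8 and 10.3 CPM in WT ML libraries, which overlapped, so that its rise in D542G differed from WT by 4.03 ± 0.57 (adjusted p = 0.0174). Ltbp1, which anchors latent TGF-beta in the matrix, stood at 347, 286 and 282 CPM in D542G N and 134, 93.6 and 166 CPM in D542G ML, and at 17.2, 40.2 and 19.8 CPM in WT N and 146, 232 and 149 CPM in WT ML. N was the higher in D542G and the lower in WT (3.99 ± 0.58, 0.0187). Between the D542G gates themselves Ltbp1 was not called (1.22 ± 0.41, adjusted p = 0.0786). Between the WT gates it was called lower in N (−2.77 ± 0.41, adjusted p = 0.00568). Both Lamb1 (3.87 ± 0.62) and Rrad, a small GTPase that binds calcium channels (3.58 ± 0.55), rose more in D542G than in WT. In the paired fit the adjusted p was 0.0503 for Rerg and 0.0657 for Lamb1 and Rrad, while Ltbp1 (0.0435) and Pde4b (0.0334) kept their calls. Between the Y541S gates N was also called higher for Rrad (3.92, adjusted p = 0.00019), Lamb1 (2.43, 0.00593) and Pde4b (1.94, 0.000267). Rerg (1.07, 0.134) and Ltbp1 (−1.01, 0.1615) were not called there. None of these genes was called for a difference between D542G and Y541S (adjusted p = 0.843 for Rrad and 0.288 for Lamb1).

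The genes called against both other genotypes numbered 5 (Afap1l2, Ier5, Scara5, Sesn3 and Thsd4). Afap1l2, an adaptor of Src signalling, rose in D542G from 16.3, 17.2 and 15.3 CPM in ML to 199, 166 and 150.0 CPM in N, by 2.62 ± 0.41 more than in WT and 2.59 ± 0.41 more than in Y541S. Scara5, a ferritin receptor, overlapped between the D542G gates, at 84, 78.6 and 68.2 CPM in N and 69.6, 102 and 70.8 CPM in ML. It was lower in N in WT (5.01, 9.03 and 14.9 against 69, 161 and 103 CPM) and in Y541S (11.3, 9.63 and 6.17 against 109, 163 and 158 CPM). Thsd4, a matrix protein, was higher in D542G N (1.12 ± 0.31) and lower in N of the others (−2.14 ± 0.31 in WT and −1.85 ± 0.31 in Y541S). Ier5, an immediate early gene (2.61 ± 0.30 against WT, 2.48 ± 0.30 against Y541S), and Sesn3, a stress-responsive regulator of mTOR signalling (2.82 ± 0.33 and 2.30 ± 0.33), were named after their values were seen. Of the 20 differences from WT, those of Pde4b, Ier5 and Sesn3 kept their call with each of 12 libraries left out in turn (adjusted p up to 0.00608 for Pde4b and 0.0245 for Ier5 and Sesn3). Each of the 20 differences from Y541S lost its call without at least 3 single libraries. In the paired fit Sesn3 was not called against Y541S (0.0652), nor Afap1l2 against either genotype (0.164 and 0.0902). The call of Thsd4 between the D542G gates themselves was lost without any 1 D542G library but ML 3 (adjusted p up to 0.157). Its difference from WT lost the call without D542G ML 1 or D542G N 3 (adjusted p up to 0.066).

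Among the genes with a lower difference in D542G than in Y541S, 2 secreted proteins show the pattern. Lgals1, a galectin abundant in stroma, stood at 23, 58.6 and 39 CPM in D542G N and 20.1, 27.2 and 26.7 CPM in D542G ML, which overlapped, and at 653, 705 and 236 CPM in Y541S N and 11.8, 24.2 and 20.2 CPM in Y541S ML (−4.12 ± 0.63, adjusted p = 0.0223). Serpinf1, a secreted serpin, stood at 10.1, 9.49 and 9.15 and 4.08, 6.08 and 5.85 CPM in the D542G gates and at 338, 196 and 138 and 2.07, 7.95 and 8.81 CPM in the Y541S gates (−4.31 ± 0.64, 0.021). In the Y541S N gate the 3 libraries of each gene lay well above those of ML, and in D542G they lay near them. The Wnt receptor gene Lgr6 went the other way, at 311, 264 and 232 CPM in D542G N and 64.2, 53 and 81.4 CPM in D542G ML against 70.5, 62.7 and 84.2 and 107, 168 and 115 CPM in Y541S (2.86 ± 0.44, 0.0216). Steap4, a metal reductase, rose in D542G from 152, 120.1 and 113 to 853, 889 and 669 CPM and stood at 245, 172 and 276 CPM in Y541S N and 254, 245 and 285 CPM in Y541S ML (2.83 ± 0.45, 0.0259). None of these 4 was called in the paired fit (adjusted p = 0.0767 for Lgals1, 0.186 for Serpinf1, 0.0652 for Lgr6 and 0.131 for Steap4).

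**Figure D4:**
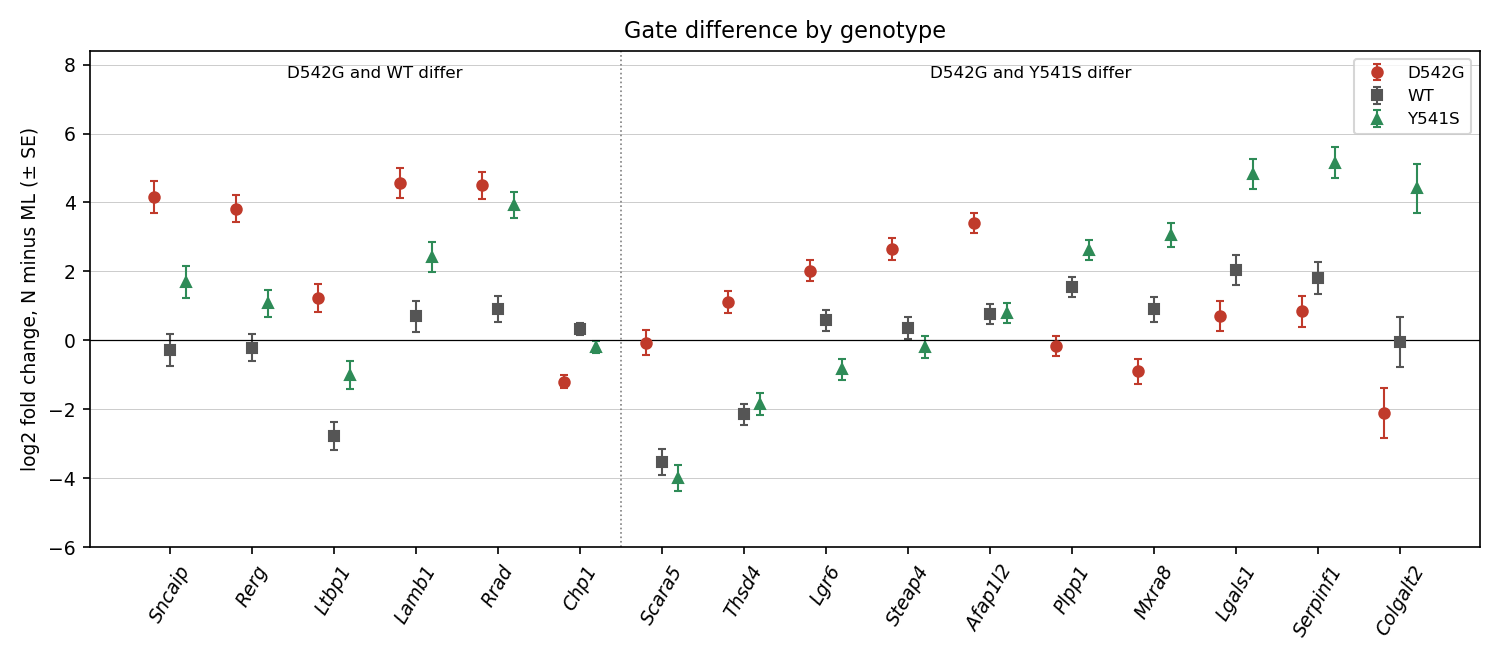
Log2 fold change of N over ML ± standard error in D542G (red circles), WT (grey squares) and Y541S (green triangles) for the 16 genes named by rule from the tests of the difference against WT (left of the dotted line) and against Y541S (right). Sncaip, Rerg, Lamb1 and Rrad stand at 3.83 or more in D542G and at 0.92 or less in WT, while Lgals1, Serpinf1 and Colgalt2 stand at 4.41 or more in Y541S and at 0.84 or less in D542G.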

How the data were processed

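RNA sequencing of sorted mouse mammary cells was analysed in 18 libraries, 3 biological replicates per gate and genotype, from Nextera XT libraries, per the labels' protocols. The authors deposited whole-number counts per gene and RPKM values. The deposited RPKM divide by the width of the gene including introns and were not used. CPM are not corrected for gene length. Ranks, shares and words such as abundant or scarce therefore refer to counts, and levels are not otherwise compared between genes. GRCm38 is named in the submitters' processing notes. Aligner, counter, annotation and strandedness were not given in the sources used here. Of 52636 gene IDs 52489 (99.7%) matched a symbol in the annotation.

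Genes passing filterByExpr (minimum count 10, minimum total 15) were tested with edgeR 4.0.16 (R 4.3.3): TMM factors (0.85 to 1.1), 6 group means over 18 libraries, the quasi-likelihood test with 12 residual degrees of freedom, and Benjamini-Hochberg adjustment over 18298 genes, a gene being called at an adjusted p under 0.05. The script was tested on simulated counts. DESeq2 1.42.0 and limma 3.58.1 (voom with quality weights), other normalization and filtering, fits without single libraries, on the 6 D542G libraries and with pairs were alternatives. Deviations of same-numbered N and ML libraries from their group means correlated at 0.166 to 0.553 in all 9 pairs, so they were treated as pairs in that fit. Pairings of unlike numbers gave −0.191 to −0.0391 in D542G and −0.455 to 0.192 over the 3 genotypes, WT N 2 correlating more with WT ML 1 (0.192) than with WT ML 2 (0.166). Of the D542G libraries, no 2 of the same gate agreed within sampling noise.

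The comparison, the gene lists and the named genes were chosen with earlier results of these data known. Named genes were the 12 highest and 12 lowest called fold changes without overlap and a mean of at least 8 CPM, the 6 most abundant called in each direction, up to 5 called members of each list by p, the 5 highest and lowest called differences between genotypes, and fixed markers. Not every gene so named is printed.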

Additional observations from a re-analysis of the deposited data

Results flagged for a closer look

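The difference between N and ML in D542G departed from that in another genotype, by a test of the difference itself, for 16 genes with a mean of at least 8 CPM that head the lists of such differences. Each value is the log2 fold change in D542G minus that in the other genotype, with 3 libraries behind each gate and genotype, and was called by edgeR's test of that difference after adjustment over all genes. The libraries named are those without which the call was lost, each left out alone, with the highest adjusted p so reached. The cause of these losses was not tested.

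Sncaip, a binding partner of synuclein, differed from WT by 4.44 and lost its call without D542G ML 1 and 2, D542G N 1 and 3, WT N 1 and 2 (adjusted p up to 0.0905), and it was not called in the paired fit (adjusted p = 0.0902). Rerg, the estrogen-regulated GTPase, differed from WT by 4.03 and lost its call without D542G ML 1 and 2, D542G N 1 and 3 (adjusted p up to 0.0787), and it was not called in the paired fit (adjusted p = 0.0503). Ltbp1, the latent TGF-beta binding protein, differed from WT by 3.99 and lost its call without D542G ML 1 and 2, D542G N 1 and 3, WT ML 2, WT N 1 (adjusted p up to 0.0787), and it was also called in the paired fit (adjusted p = 0.0435). Lamb1, the laminin chain, differed from WT by 3.87 and lost its call without D542G ML 1, 2 and 3, D542G N 1, 2 and 3, WT ML 1 and 2, WT N 2 (adjusted p up to 0.11), and it was not called in the paired fit (adjusted p = 0.0657). Rrad, the small GTPase, differed from WT by 3.58 and lost its call without D542G ML 1, 2 and 3, D542G N 1 and 3, WT ML 2, WT N 1 and 2 (adjusted p up to 0.101), and it was not called in the paired fit (adjusted p = 0.0657). Chp1, a calcineurin-like regulator of proton exchange, differed from WT by −1.53 and lost its call without D542G ML 1, 2 and 3, D542G N 1, 2 and 3, WT ML 1 and 2, WT N 1 and 2 (adjusted p up to 0.145), and it was not called in the paired fit (adjusted p = 0.0864).

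Scara5, the ferritin receptor, differed from Y541S by 3.92 and lost its call without D542G ML 1, D542G N 1 and 3, Y541S N 2 (adjusted p up to 0.0577), and it was also called in the paired fit (adjusted p = 0.0444). Thsd4, the matrix protein, differed from Y541S by 2.97 and lost its call without D542G ML 1 and 2, D542G N 1 and 3, Y541S ML 2, Y541S N 1 and 2 (adjusted p up to 0.0764), and it was also called in the paired fit (adjusted p = 0.049). Lgr6, the R-spondin receptor, differed from Y541S by 2.86 and lost its call without D542G ML 1 and 2, D542G N 1, 2 and 3, Y541S ML 2, Y541S N 1 and 2 (adjusted p up to 0.0882), and it was not called in the paired fit (adjusted p = 0.0652). Steap4, the metal reductase, differed from Y541S by 2.83 and lost its call without D542G ML 1, 2 and 3, D542G N 1, 2 and 3, Y541S ML 1, 2 and 3, Y541S N 1 and 2 (adjusted p up to 0.104), and it was not called in the paired fit (adjusted p = 0.131). Afap1l2, the Src adaptor, differed from Y541S by 2.59 and lost its call without D542G ML 1, 2 and 3, D542G N 1, 2 and 3, Y541S ML 1 and 3, Y541S N 1, 2 and 3 (adjusted p up to 0.109), and it was not called in the paired fit (adjusted p = 0.164). Colgalt2, an enzyme that glycosylates collagen, differed from Y541S by −6.52 and lost its call without D542G ML 1, 2 and 3, D542G N 1, 2 and 3, Y541S ML 1, 2 and 3, Y541S N 1 and 2 (adjusted p up to 0.146), and it was not called in the paired fit (adjusted p = 0.135). Serpinf1, the secreted serpin, differed from Y541S by −4.31 and lost its call without D542G ML 1 and 2, D542G N 1, 2 and 3, Y541S ML 2, Y541S N 1 and 2 (adjusted p up to 0.0804), and it was not called in the paired fit (adjusted p = 0.186). Lgals1, the galectin, differed from Y541S by −4.12 and lost its call without D542G ML 1 and 2, D542G N 1 and 3, Y541S ML 1, 2 and 3, Y541S N 1 and 2 (adjusted p up to 0.0945), and it was not called in the paired fit (adjusted p = 0.0767). Mxra8, a surface protein of mesenchymal cells, differed from Y541S by −3.95 and lost its call without D542G N 1 and 3, Y541S N 2 (adjusted p up to 0.0577), and it was also called in the paired fit (adjusted p = 0.049). Plpp1, a lipid phosphate phosphatase, differed from Y541S by −2.79 and lost its call without D542G ML 1 and 2, D542G N 1, 2 and 3, Y541S ML 2 and 3, Y541S N 1 and 2 (adjusted p up to 0.0811), and it was not called in the paired fit (adjusted p = 0.135).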

How the results depend on the processing

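Genes higher and lower in N, 862 and 822, numbered 867 and 815 with the size factors of DESeq2 in edgeR and 669 and 628 with no filter on low counts. DESeq2 called 1565 and 1621, limma-voom 2785 and 3077, and edgeR on the 6 D542G libraries alone 1773 and 1778. The replicate block, with same-numbered libraries as pairs, gave 1021 and 934 in the 18 libraries, and 1751 and 1635 in the 6. Leaving out 1 library gave 357 to 1230 higher and 246 to 1315 lower. The lowest counts came without D542G ML 1 and without D542G N 3, the highest both without WT N 3 (1230 and 1315). Differences from WT, 19 higher and 1 lower, numbered 248 and 156 by DESeq2, 736 and 518 by limma-voom, 14 and 1 with the replicate block, and 19 and 0 with no filter on low counts. They ranged from 3 to 119 and from 0 to 30 with 1 library left out. Differences from Y541S, 11 and 9, numbered 131 and 198 by DESeq2, 134 and 129 by limma-voom and 6 and 1 with the replicate block, and ranged from 0 to 27 in each direction. The cause of these changes was not tested, beyond that fewer or other libraries entered. No called value of a named gene changed sign. Among those not called, Foxa1, Areg, Pgr, Plpp1 and Mki67 did without D542G ML 3 (to −0.02, −8.2e-05, −0.33, 0.02 and 0.75), Pgr and Mki67 without D542G N 2 (to −0.05 and 0.22), Scara5 without ML 2 or N 3 (to 0.14 and 0.03) and Pgr by limma-voom (to −0.09). Of 210 tests of named genes, 210 kept their side of the threshold with the size factors of DESeq2, 201 with DESeq2 (7 more became called, and it gave no value for the other two), 196 with no filter and 191 with the replicate block, against 130 to 173 with 1 D542G library left out. With no filter 14 calls were lost, among them those of Gapdh, Malat1 and Mbp, genes not described above (adjusted p 0.0612, 0.0575 and 0.0683). The called genes Calca, Dgat2, Esrrg, Pigr, Pmvk, Serpina9, Slc6a4, Spint2, Tgfbi and Thsd4 were not called then either (adjusted p 0.0507 to 0.0661), nor was the difference of Chp1 from WT (0.0604), Muc4 by limma-voom (0.0891) or Thsd4 in the 6 libraries (0.0577).

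With 3 libraries a gate, a gene that was not called cannot be said to be alike in both gates. Genes lying inside other genes mostly had no count in these files (90.4% of 1216, against 14.9% of the rest). B2m and Cox4i1, listed under class I and oxidative phosphorylation, also had no count in any library. A 0 such as that of Tff1, Tff3 or Csn3 therefore need not mean that the gene was silent, and its cause was not tested.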
